A study of Mus musculus with 6 samples.

Results

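Genes of Schwann cells and nerve glia, 31 in all, were picked by name out of 37991 genes counted in Nestin-GFP-positive mouse cells. Each of the 31 symbols matched a single Ensembl identifier in the count files. The mutant group was 3 mice that carried the reporter Nes-GFP, the recombinase Nes-Cre and, on 1 Pdgfra copy, the constitutively active form D842V. The labels put "[S]" before D842V, and the sources used here do not say what it stands for. The control group was 3 mice that carried Nes-GFP, with no Nes-Cre in their labels. All 6 mice were 3 days old, and the cells were sorted from the dermis and the white fat attached to it after the epidermis and hair follicles had been removed. By their labels the mutant and control groups differ in the recombinase as well as the allele, though the control label may not give the full genotype. The sort takes any cell in which the Nestin regulatory sequence drives GFP. The title of the series calls these cells pericytes. Nestin is also known in immature Schwann cells and muscle progenitors.

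Schwann cells are the glia of peripheral nerves and come from the neural crest. Immature cells carry neurotrophin and neuregulin receptors and adhesion molecules such as Ncam1 and L1cam. They then either wrap large axons and switch on myelin genes, or ensheathe groups of small axons as non-myelinating cells that keep much of the immature set. In neonatal skin the nerve twigs hold both kinds, and myelination is still under way. The 31 genes were sorted by their known roles into 12 immature or non-myelinating genes, 11 myelinating genes, 5 genes shared by the lineage, 2 trophic ligands and 1 further adhesion gene.

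Gene counts per library ran from 15110824 to 18792939 in mutant libraries and from 11912469 to 15839701 in control libraries. CPM are counts per 1000000 gene counts after TMM scaling. A gene with no count could still be present at up to 3 counts, which is 0.16 to 0.252 CPM across libraries (counting error only). Pdgfra, the gene of the altered allele, had 345.3 to 369.0 CPM in mutant libraries and 820.0 to 857.3 CPM in control libraries, and counts per gene do not tell its alleles apart. Nes, the gene behind the reporter, had 84.3 ± 13.5 CPM in mutant and 74.4 ± 5.83 CPM in control libraries (SD, n = 3 each). Calls were made at an adjusted p under 0.05 in edgeR's quasi-likelihood test (Benjamini-Hochberg over the 15035 genes that passed the filter on low counts).

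Glial transcripts were present in every library. The defining genes Sox10, S100b, Erbb3, Cdh19 and Foxd3 were detected in all 6 libraries. Per kilobase of exon, the most abundant of the 31 was Pmp22, with a mean of 113.6 CPM per kb in mutant and 140.8 CPM per kb in control libraries. Pmp22 encodes a membrane protein of compact myelin, but fibroblasts also express it as a growth-arrest gene. Gap43, a growth-cone protein of neurons and immature Schwann cells, had 32.7 CPM per kb in mutant and 29.4 CPM per kb in control libraries. Ngfr was at 29.7 CPM per kb in mutant and 23.6 CPM per kb in control libraries, and Ncam1 at 20.0 CPM per kb in mutant and 25.3 CPM per kb in control libraries. Over the 6 libraries Gap43 (25.3 to 37.8 CPM per kb), Ngfr (20.9 to 30.7) and Ncam1 (18.5 to 25.9) overlapped, and the order of Ngfr and Ncam1 differed between the groups, so their order is not resolved. The lineage regulator Sox10 (4.58 to 8.98 CPM per kb over the 6 libraries) and the neuregulin receptor gene Erbb3 (5.45 to 7.45) overlapped likewise. The least abundant gene tested was Cadm2, at 0.246 CPM per kb in mutant and 0.231 CPM per kb in control libraries.

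**Figure D1:**
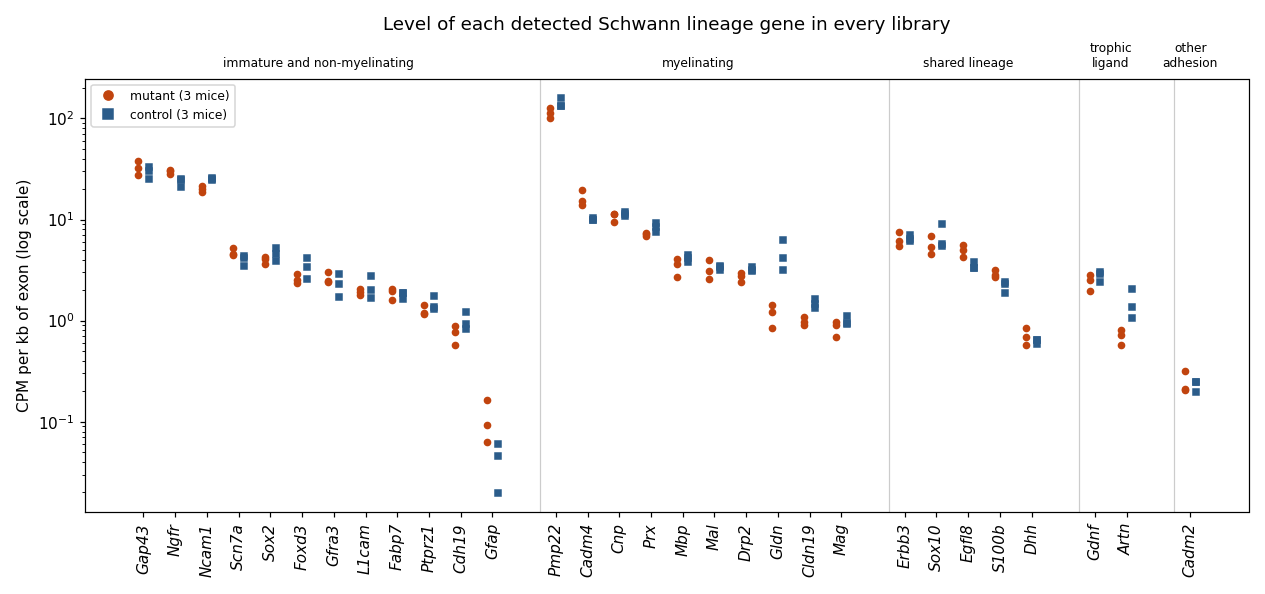
Level of each detected Schwann lineage gene in CPM per kb of exon on a log scale, 1 point per library, with mutant libraries (circles) left of control libraries (squares) and genes grouped by role. Gldn and Artn have the largest log2 fold changes in size among tested genes, and Pmp22 lies highest in both groups.

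Most of the Schwann lineage genes did not pass the test, and those that did moved in both directions. Of the 31 genes 29 passed the filter on low counts, 3 rose, 4 fell and 22 were not called. Ngfr, Cadm4 and Egfl8 rose, and Gldn, Artn, Cldn19 and Ncam1 fell. The 7 called were 24.1% of the 29, beside 17.8% of all genes tested, of which 8.63% were called higher and 9.13% lower, so the share is near the background and says little about the list. Mutant and control libraries did not overlap in 12 of the 29, 5 of them higher and 7 lower in mutant libraries, beside 19.2% of all genes tested that were higher and 18.6% that were lower without overlap. The median log2 fold change of the 29, mutant over control, was -0.19, against 0.01 for all genes tested. In bulk RNA of sorted cells, fewer cells of a type and less RNA per cell cannot be told apart. Without mutant replicate 3 only Cadm4 and Gldn of the 31 were called, 1 higher and 1 lower, and calls over all genes numbered 1411 against 2670 with all libraries. Leaving out control replicate 2 gave 1657 such calls, and leaving out control replicate 3 gave 1486.

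**Figure D2:**
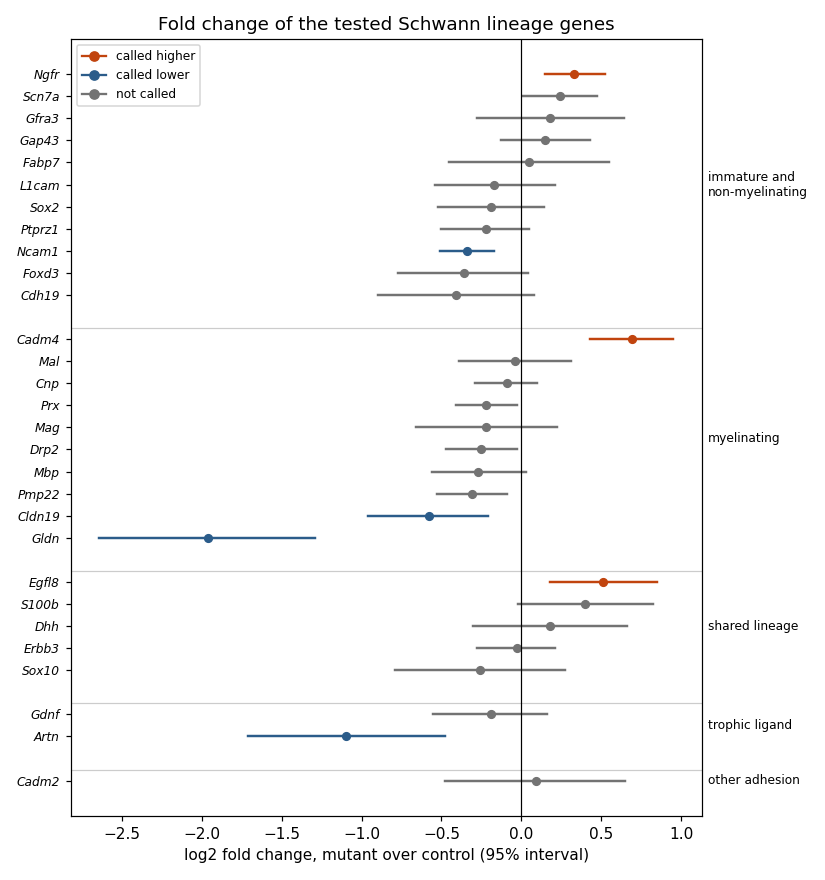
Log2 fold change, mutant over control, of the 29 tested Schwann lineage genes with 95% intervals from edgeR, grouped by role. Of the myelinating genes 9 of 10 lie below 0, with Cadm4 at 0.69 the exception, while the immature genes lie on both sides.

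The ligand genes Artn, Gdnf and Dhh were expressed at 11.2 CPM or less in every library, and Artn fell. Artn (artemin), a ligand of the GDNF family that acts on sensory and sympathetic neurons, had 1.74, 1.95 and 1.37 CPM in mutant replicates 1 to 3, against 4.93, 3.27 and 2.56 CPM in control replicates 1 to 3. All mutant libraries lay below all control libraries, on counts of 26 to 30 reads in mutant and 39 to 77 in control libraries. Artn fell by 1.1 on the log2 scale (95% interval -1.71 to -0.48, edgeR adjusted p = 0.0204). The call was lost without mutant replicate 3 (adjusted p = 0.078) and without control replicate 1 (0.0666). Gdnf, which supports motor and sensory neurons, had 9.19, 7.15 and 10.5 CPM in mutant and 8.90, 10.7 and 11.2 CPM in control libraries. These groups overlapped, and Gdnf was not called (log2 fold change -0.19, interval -0.55 to 0.16, edgeR adjusted p = 0.44). Dhh (desert hedgehog), the Schwann signal that organises the perineurial sheath, averaged 3.08 ± 0.583 CPM in mutant and 2.74 ± 0.159 CPM in control libraries (SD, n = 3 each) and was not called (log2 fold change 0.18). In the reference annotation, 12.4% of Dhh exon bases are shared with Rhebl1, so its count is uncertain.

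Of the receptors, Ngfr alone was called. Ngfr, the low-affinity neurotrophin receptor that immature and non-myelinating Schwann cells keep, had 103.8, 97.7 and 106.0 CPM in mutant replicates 1 to 3, against 71.9, 87.4 and 85.0 CPM in control replicates 1 to 3. Every mutant library lay above every control library. Its rise was 0.33 on the log2 scale (95% interval 0.15 to 0.52, edgeR adjusted p = 0.02), a call lost without mutant replicate 1 (adjusted p = 0.0601), mutant replicate 3 (0.0769) or control replicate 1 (0.0559). Erbb3, through which neuregulin keeps Schwann cell precursors alive, had 32.8, 37.1 and 44.8 CPM in mutant and 42.4, 38.6 and 36.7 CPM in control libraries. The groups overlapped, with a log2 fold change of -0.03 (interval -0.28 to 0.21) and an edgeR adjusted p of 0.863. Gfra3, the co-receptor through which artemin signals, averaged 5.28 ± 0.721 CPM in mutant and 4.63 ± 1.19 CPM in control libraries (SD, n = 3 each). Its log2 fold change of 0.18 had an interval of -0.28 to 0.64, so the direction was not resolved.

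None of the tested transcription factors of the lineage was called. Sox10, which specifies and maintains the glial lineage, had 16.4, 14.0 and 21.0 CPM in mutant and 27.4, 16.6 and 17.4 CPM in control libraries. Control replicate 1 stood above the other 5 libraries, and the rest overlapped. The log2 fold change was -0.26 (interval -0.79 to 0.27, edgeR adjusted p = 0.479), and without control replicate 1 it was 0.00. Foxd3, a neural crest factor, had a log2 fold change of -0.36 (interval -0.77 to 0.04), and Sox2, which holds Schwann cells back from myelination and is also expressed by the dermal papilla of hair follicles, had one of -0.19 (interval -0.52 to 0.14). Pou3f1, which drives the step to the promyelinating stage, had 0 counts in all 6 libraries, below the limits given above. Whether reads of Pou3f1 could be assigned to it in the counting was not tested. Sox10 and Erbb3 are also expressed by melanocytes.

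Among adhesion molecules, the immature gene Ncam1 and the myelination gene Cadm4 moved in opposite directions. Ncam1, a neural adhesion molecule also made by muscle and mesenchymal cells, had 186.1, 173.2 and 160.5 CPM in mutant replicates 1 to 3, against 224.3, 213.9 and 219.8 CPM in control replicates 1 to 3. All mutant libraries lay below all control libraries. Ncam1 fell by 0.34 on the log2 scale (95% interval -0.51 to -0.17, edgeR adjusted p = 0.0108), a call lost without mutant replicate 3 (adjusted p = 0.0597). Cadm4, an immunoglobulin-family molecule by which Schwann cells bind the axon along the internode, had 32.7, 30.0 and 41.9 CPM in mutant and 21.5, 22.2 and 21.3 CPM in control libraries. The mutant libraries all lay higher, with mutant replicate 3 the highest. Its rise was 0.69 on the log2 scale (interval 0.43 to 0.95, edgeR adjusted p = 0.00328), and it was called in all 13 alternatives. Cadm2, a related molecule, had 3.15, 2.08 and 2.01 CPM in mutant and 1.92, 2.43 and 2.43 CPM in control libraries and was not called (log2 fold change 0.09, interval -0.48 to 0.65, edgeR adjusted p = 0.844). L1cam, an axon-binding molecule of non-myelinating cells, and Cdh19, a cadherin of Schwann cell precursors, overlapped between groups and were not called, at log2 fold changes of -0.17 for L1cam and -0.41 for Cdh19. L1cam turned to 0.05 without control replicate 1.

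Of the other immature and lineage markers, Egfl8 rose and the rest were not called. Gap43 had 49.7, 42.3 and 57.5 CPM in mutant and 50.1, 38.5 and 45.8 CPM in control libraries, which overlapped (log2 fold change 0.15, interval -0.13 to 0.43). S100b, a calcium-binding protein used as a Schwann cell marker, had 4.23, 3.97 and 4.70 CPM in mutant and 3.39, 2.77 and 3.59 CPM in control libraries. All mutant libraries lay above all control libraries, but S100b was not called (log2 fold change 0.40, edgeR adjusted p = 0.174). Scn7a, a sodium channel of non-myelinating cells, also did not overlap between groups, with means of 34.9 ± 3.09 CPM in mutant and 29.4 ± 3.52 CPM in control libraries (SD, n = 3 each), and was not called (edgeR adjusted p = 0.129). Fabp7, a fatty acid binding protein of immature glia, and Ptprz1, a receptor-type phosphatase, had log2 fold changes of 0.05 and -0.22. Gfap, the intermediate filament of non-myelinating Schwann cells, was almost absent, with 4, 6 and 13 counts in mutant and 3, 1 and 4 counts in control libraries, and it did not pass the filter. Egfl8, which encodes a secreted protein with EGF-like repeats, had 7.58, 8.84 and 9.82 CPM in mutant and 6.66, 5.87 and 5.89 CPM in control libraries, with no overlap. Its rise of 0.51 on the log2 scale (interval 0.18 to 0.85, edgeR adjusted p = 0.0388) is uncertain, since 34.9% of its exon bases are shared with the transcript Gm20460. The call of Egfl8 was lost with DESeq2 (adjusted p = 0.0806), with the replicate block (0.0547) and without mutant replicate 2 (0.0789), mutant replicate 3 (0.153), control replicate 2 (0.107) or control replicate 3 (0.115).

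**Figure D3:**
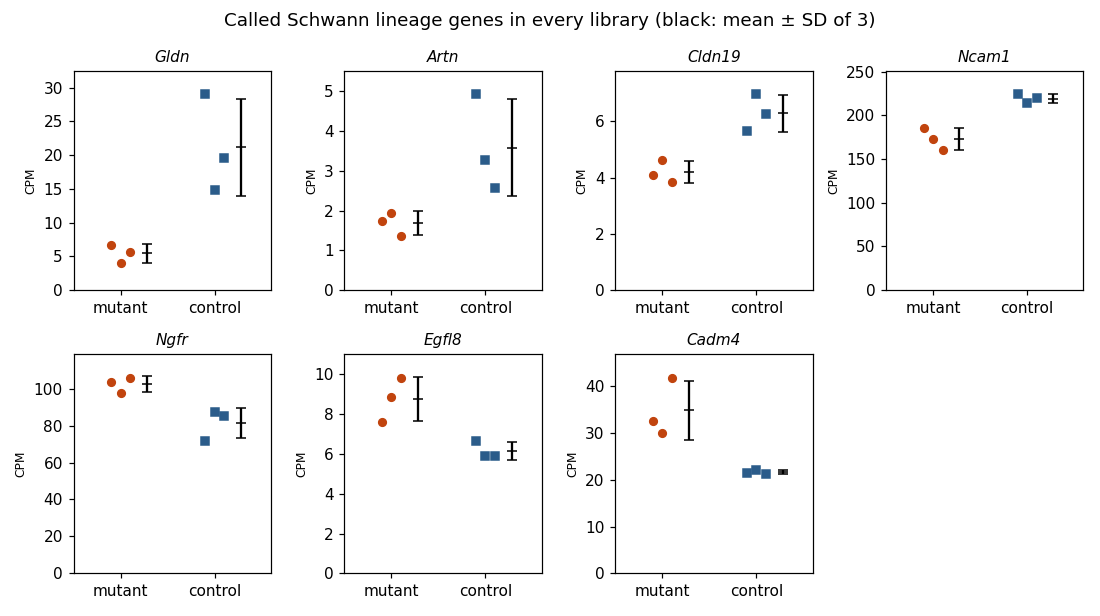
CPM of the 7 called Schwann lineage genes in each library, mutant left (circles) and control right (squares), with the mean and SD of 3 libraries in black. In all 7 genes the mutant and control libraries do not overlap, with Gldn at 3.97 to 6.71 CPM in mutant and 14.9 to 29.0 CPM in control libraries.

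Myelinating genes were mostly on the lower side in mutant libraries, led by Gldn. Of the 10 tested, 1 rose, 2 fell and 7 were not called, which is 30.0% called beside 17.8% of all genes tested, and 9 had a log2 fold change below 0, beside 49.2% of all genes tested. Mutant and control libraries did not overlap in 6 of the 10, 5 of them lower in mutant libraries, beside 18.6% of all genes that were lower without overlap. Gldn (gliomedin), which Schwann cells deposit at the nodes of Ranvier to gather sodium channels, had 6.71, 3.97 and 5.65 CPM in mutant replicates 1 to 3, against 29.0, 14.9 and 19.6 CPM in control replicates 1 to 3. The lowest control library had more than the highest mutant library, and control replicate 1 was the highest of all. Gldn fell by 1.96 on the log2 scale (95% interval -2.64 to -1.29, edgeR adjusted p = 0.00547), which is 3.90-fold lower, and it ranked 27 by fold among the 1372 genes called lower. Its call held in all 13 alternatives, where its log2 fold change lay between -2.16 and -1.68. Cldn19, a tight-junction claudin of peripheral myelin, had 4.09, 4.62 and 3.85 CPM in mutant and 5.64, 6.96 and 6.27 CPM in control libraries. These did not overlap, and Cldn19 fell by 0.58 on the log2 scale (interval -0.96 to -0.21, edgeR adjusted p = 0.0347). Its call was lost with DESeq2 (adjusted p = 0.0747) and without mutant replicate 1 (0.0832), mutant replicate 3 (0.118), control replicate 2 (0.116) or control replicate 3 (0.0878), and without the last 3 of these libraries in turn 1 myelinating gene was lower, Gldn.

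The myelinating genes that were not called showed smaller differences. Pmp22 had 300.7, 236.9 and 264.8 CPM in mutant and 372.3, 310.1 and 312.0 CPM in control libraries. All mutant libraries lay below all control libraries, with a log2 fold change of -0.31 (interval -0.53 to -0.09) and an edgeR adjusted p of 0.0555. It passed the threshold, still lower, when mutant replicate 1 was left out (edgeR adjusted p = 0.0267), in DESeq2 (0.0223), with DESeq2 size factors in edgeR (0.0492), with the replicate block (0.0155) and with no filter on low counts (0.00345). Cnp, an enzyme of non-compact myelin, had 40.9, 34.6 and 41.0 CPM in mutant and 43.2, 41.4 and 39.8 CPM in control libraries, which overlapped (log2 fold change -0.09, interval -0.29 to 0.10). Prx (periaxin) and Drp2 (a dystrophin-related protein), partners that tie the Schwann cell membrane to the basal lamina, did not overlap between groups. Prx averaged 40.0 ± 1.6 CPM in mutant and 46.8 ± 4.47 CPM in control libraries, and Drp2 23.1 ± 2.51 CPM in mutant and 27.5 ± 1.29 CPM in control libraries (SD, n = 3 each). Neither was called by edgeR (adjusted p = 0.096 and 0.111). Mbp, the myelin basic protein gene, Mag, an adhesion molecule facing the axon, and Mal, a myelin proteolipid, overlapped between groups, with log2 fold changes of -0.27, -0.22 and -0.04. Mbp was called with no filter on low counts (adjusted p = 0.0414).

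The promoter windows of the 3 myelinating genes that were called are shown because these genes moved in different directions. They are RefSeq sequences on GRCm38.p6, from 250 bases before to 50 after the transcription start, and the counts themselves were made on mm9. Capitals mark matches on either strand to the SOX core (ACAAAG or ACAATG), the EGR core (GTGGGCG) or the AP-1 motif (TGANTCA). The Gldn window lies at chr9:54286236-54286535 on the plus strand, Cldn19 at chr4:119255191-119255490 on the plus strand, the more upstream of its 2 windows, and Cadm4 at chr7:24481773-24482072 on the plus strand.
Gldn: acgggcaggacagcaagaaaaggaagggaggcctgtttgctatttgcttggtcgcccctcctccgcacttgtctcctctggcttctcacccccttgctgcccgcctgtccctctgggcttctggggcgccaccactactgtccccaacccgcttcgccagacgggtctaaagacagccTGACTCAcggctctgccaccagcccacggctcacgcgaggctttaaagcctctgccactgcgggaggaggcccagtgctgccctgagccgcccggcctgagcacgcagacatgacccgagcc
Cldn19: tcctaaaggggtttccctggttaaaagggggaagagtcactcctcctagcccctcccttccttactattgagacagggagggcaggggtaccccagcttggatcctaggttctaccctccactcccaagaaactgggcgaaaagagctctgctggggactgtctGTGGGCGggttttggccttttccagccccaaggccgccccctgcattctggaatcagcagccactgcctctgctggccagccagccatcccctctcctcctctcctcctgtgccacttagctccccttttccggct
Cadm4: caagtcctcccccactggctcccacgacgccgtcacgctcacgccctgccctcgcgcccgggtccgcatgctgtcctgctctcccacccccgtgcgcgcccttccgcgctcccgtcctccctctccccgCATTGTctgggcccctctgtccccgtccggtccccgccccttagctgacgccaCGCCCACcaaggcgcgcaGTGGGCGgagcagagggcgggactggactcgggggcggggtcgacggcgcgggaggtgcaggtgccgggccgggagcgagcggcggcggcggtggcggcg
The Gldn window, of the gene with the largest fall, held 1 AP-1 match and no SOX or EGR match, and the Cldn19 window held 1 EGR match only. The Cadm4 window held 2 EGR matches and 1 SOX match. Of all 32851 promoter windows of this length, 28.6% held the SOX core, 7.97% the EGR core and 7.81% the AP-1 motif. Among the 31 genes 22 had windows, and 5, 3 and 1 of these held the SOX, EGR and AP-1 motifs in at least 1 window. Counted by window, as for the shares of all windows, 6, 4 and 1 of their 30 windows held these motifs. A match is a run of letters in this window and says nothing of binding.

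Set side by side, the mean over the myelinating genes in each library separated the groups only with Gldn included. The median over these genes in each library separated them without Gldn too, by a narrow margin. Neither the mean nor the median over the immature genes in each library separated them. The median log2 fold change was -0.24 over the 10 myelinating genes tested and -0.17 over the 11 immature and non-myelinating genes tested, beside 0.01 over all genes tested. Without Gldn the myelinating median was -0.22, with 8 of 9 genes below 0, beside 49.2% of all genes tested. Mutant and control libraries did not overlap in 5 of these 9, 4 lower and 1 higher, beside 18.6% and 19.2% of all genes tested. Among the 11 immature genes 1 rose, 1 fell and 9 were not called, which is 18.2% called beside 17.8% of all genes tested. Of the same 11, 6 lay below 0, beside 49.2% of all genes tested, and both counts are near the background. Without control replicate 1 the immature median was 0.05, and without control replicate 3 it was -0.08, while the myelinating median stayed between -0.31 and -0.17 with any 1 library left out. The rise among immature genes, Ngfr, numbered 0 without mutant replicate 1, mutant replicate 3 or control replicate 1, and the fall, Ncam1, numbered 0 without mutant replicate 3.

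In each library, the log2 difference from the control mean was averaged over the genes of a class. For the myelinating class it was -0.30, -0.45 and -0.19 in mutant replicates 1 to 3, against 0.05, -0.02 and -0.03 in control replicates 1 to 3, so all mutant libraries were lower. Without Gldn it was -0.16, -0.25 and -0.02 in mutant replicates 1 to 3, against 0.00, 0.03 and -0.03 in control replicates 1 to 3, and the groups overlapped. The median over the same genes was -0.20, -0.26 and -0.04 in mutant replicates 1 to 3. In control replicates 1 to 3 that median was 0.01, 0.03 and -0.03, so the medians did not overlap, though mutant and control replicate 3 lay close together. For the immature class the average was -0.07, -0.11 and 0.01 in mutant replicates 1 to 3, against 0.13, -0.06 and -0.07 in control replicates 1 to 3, and the groups overlapped. The myelinating minus the immature average was -0.23, -0.34 and -0.20 in mutant libraries and -0.08, 0.04 and 0.04 in control libraries. Without Gldn the difference was -0.10, -0.15 and -0.03 in mutant and -0.13, 0.09 and 0.05 in control libraries, which overlapped. The separation of the groups in this difference of averages therefore depended on Gldn, with control replicate 1 lying among the mutant libraries once Gldn was left out. Cadm4, the 1 myelinating gene above 0 (log2 fold change 0.69), stayed in that average, while the other 8 lay below 0. Averages without Cadm4 were not computed. For the 5 shared lineage genes the average was 0.04, 0.02 and 0.35 in mutant replicates 1 to 3, against 0.13, -0.10 and -0.03 in control replicates 1 to 3, with overlap.

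**Figure D4:**
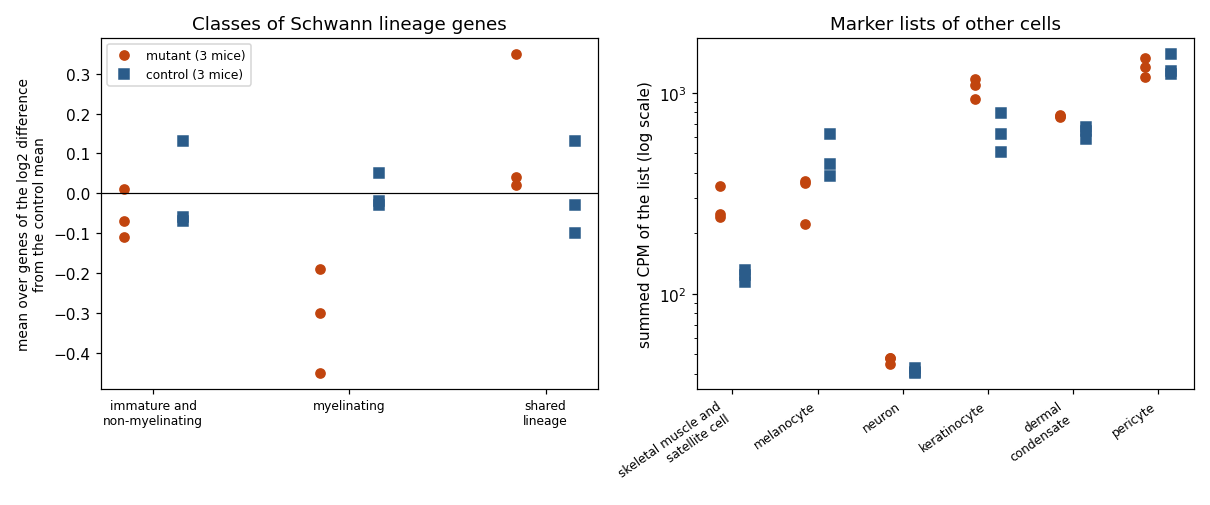
Left, the mean over the genes of each Schwann class of the log2 difference from the control mean, 1 point per library, with mutant libraries (circles) left of control libraries (squares); right, summed CPM of marker lists of other cells on a log scale, drawn the same way. The myelinating class is at -0.45 to -0.19 in mutant and -0.03 to 0.05 in control libraries. Of the marker lists drawn, only the pericyte list overlaps between groups.

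Further genes of the Schwann programme, taken from a list of 17 that excludes the 31, mostly did not pass the test. Of 16 tested, 1 rose and 2 fell, which is 18.8% called, near the 17.8% of all genes tested, and the median log2 fold change was -0.12. Of the same 16, 12 had a log2 fold change below 0, beside 49.2% of all genes tested. Mutant and control libraries did not overlap in 9, 7 lower and 2 higher in mutant libraries, beside 18.6% and 19.2% of all genes tested. Nab2, a co-repressor that binds Egr proteins, had 42.8, 31.9 and 42.4 CPM in mutant replicates 1 to 3, against 56.4, 65.9 and 52.3 CPM in control replicates 1 to 3. All mutant libraries lay below all control libraries, and Nab2 fell by 0.57 on the log2 scale (95% interval -0.85 to -0.30, edgeR adjusted p = 0.0118), a call that held in all 13 alternatives. Id4, an inhibitor of differentiation factors, fell by 0.41 (edgeR adjusted p = 0.026). Itgb4, the laminin receptor subunit of mature Schwann cells and of keratinocytes, rose by 0.40 (0.0219). Egr2, the master regulator of myelination, which many stimulated cells also induce, had 55.1, 55.7 and 55.5 CPM in mutant and 69.8, 112.3 and 133.7 CPM in control libraries. All mutant libraries lay below all control libraries, with a log2 fold change of -0.92 (interval -1.52 to -0.32). Egr2 was not called (edgeR adjusted p = 0.0534). Egr2 is named although the naming rule does not select it, with its values already in view. The call of Id4 was lost without any 1 library but control replicate 1 (largest adjusted p 0.107), and that of Itgb4 without mutant replicate 1, mutant replicate 3 or control replicate 3 (largest 0.0829), where the rises numbered 0. Leaving out control replicate 1 gave 5 falls, and leaving out mutant replicate 1, mutant replicate 2, control replicate 2 or control replicate 3 gave 1. With no filter, with a filter of at least 1 CPM in 3 libraries, with DESeq2 and with limma-voom the falls numbered 3.

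Ligand and receptor partners of the Schwann genes also moved both ways. Of 18 tested, 2 rose and 4 fell, which is 33.3% called beside 17.8% of all genes tested, with a median log2 fold change of -0.01. Hhip, which binds and blocks hedgehog ligands such as Dhh, had 107.9, 102.9 and 96.5 CPM in mutant and 174.8, 154.6 and 173.6 CPM in control libraries. These did not overlap, and Hhip fell by 0.71 on the log2 scale (edgeR adjusted p = 0.000241), while Ptch1, the hedgehog receptor gene, rose by 0.35 (0.0305). Gfra2, the co-receptor for neurturin, fell by 0.44 (edgeR adjusted p = 0.0107) and the neurotrophin gene Bdnf by 0.50 (0.0235). Ret, the receptor that Gfra co-receptors share, and Nrg1, the neuregulin gene, did not pass the test, at log2 fold changes of -0.03 for Ret and -0.23 for Nrg1; both were picked with their values in view. The rises numbered 0 without mutant replicate 2, mutant replicate 3 or control replicate 3 and 1 without control replicate 1, the falls numbered 2 without mutant replicate 2, mutant replicate 3 or control replicate 3, and the cause was not tested. Bdnf lost its call without mutant replicate 2 or 3 or control replicate 2 or 3 (largest edgeR adjusted p 0.0884), and Ptch1 without mutant replicate 2 or 3 or control replicate 1 or 3 (largest 0.101).

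Markers of other cells moved between the groups as well, beside 8.63% of all genes tested called higher and 9.13% called lower. Melanocytes share Sox10 and Erbb3 with Schwann cells, and of 10 melanocyte markers 3 fell and none rose, with Mitf (log2 fold change -0.53) and Kit (-1.03) first. All 10 had a log2 fold change below 0, beside 49.2% of all genes tested, with a median of -0.87. Mutant and control libraries did not overlap in 5 of the 10, all lower, beside 18.6% of all genes tested. The summed level of the melanocyte markers was 222.4 to 364.6 CPM in mutant and 386.3 to 623.4 CPM in control libraries, highest in control replicate 1, which also had the highest Sox10. Muscle and satellite cell genes gave 9 rises and no fall among 14, Cdh15 (1.14) and Chrng (1.80) first, with sums of 240.2 to 344.9 CPM in mutant and 114.5 to 131.1 CPM in control libraries. Of 10 keratinocyte genes 4 rose and none fell, with Krt15 (0.87) and Krt5 (0.80) first, and sums of 932.8 to 1171.6 CPM in mutant and 508.7 to 795.7 CPM in control libraries. Of 9 neuronal genes 4 passed the filter and Stmn2 rose by 0.25, a call lost in 10 of 13 alternatives, with sums of 44.9 to 48.1 CPM in mutant and 40.5 to 42.6 CPM in control libraries. The neuronal markers Snap25, Prph and Rbfox3, picked with their values in view, were at under 1 CPM in every library. Others of the list lay higher, such as Uchl1 (2.99 to 5.39 CPM over all libraries) and Stmn2 (30.6 to 39.0). Dermal condensate genes, the class that shares Sox2, numbered 2 risen and 2 fallen of 9, with Corin at -0.48 and Bmp3 at 1.04 and sums of 759.4 to 771.1 CPM in mutant and 587.1 to 675.9 CPM in control libraries. Of 9 pericyte markers 2 rose, Kcnj8 (1.47) and Abcc9 (0.85), and none fell, with sums of 1197.7 to 1489.3 CPM in mutant and 1243.2 to 1561.8 CPM in control libraries. Genes that respond to tissue dissociation gave 1 rise, Jun (0.58), and 2 falls among 8, led by Hspa1b (-2.40), whose reads are uncertain because it has a near-identical copy. Their sums were 8084.2 to 9259.1 CPM in mutant and 4353.0 to 6840.2 CPM in control libraries. Mutant and control libraries did not overlap in any of the 8, with 6 higher and 2 lower in mutant libraries, beside 19.2% and 18.6% of all genes tested. The part of these cells and states in the Schwann lineage values was not tested. Falls among melanocyte markers numbered 1 without mutant replicate 1 or control replicate 3 and 5 with the replicate block, and rises among keratinocyte genes 1 without mutant replicate 1, mutant replicate 3 or control replicate 3. Kit lost its call without mutant replicate 1 or control replicate 2 or 3 (largest edgeR adjusted p 0.0927). Its call was also lost with no filter, where the edgeR adjusted p was 0.05. Krt5 lost its call without mutant replicate 1 or 3 or control replicate 3 (largest edgeR adjusted p 0.114) and with the replicate block (0.122), and Bmp3 without mutant replicate 2 or control replicate 3 (largest 0.0546). Rises among dermal condensate genes numbered 0 without mutant replicate 2, 1 without mutant replicate 3 or control replicate 3 and 4 without control replicate 1, and they also numbered 4 with DESeq2, limma-voom or the replicate block. The dissociation rises numbered 3 without control replicate 1 and 2 with DESeq2 or limma-voom. Falls among pericyte markers numbered 1 without control replicate 3, with no filter and with the replicate block.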

How the data were processed

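RNA of sorted cells was sequenced in 6 libraries, 3 mutant and 3 control. The authors deposited whole-number counts of reads per Ensembl gene, 1 file per library. Per the submitters' processing notes, which do not say what each tool did, HTSeq 0.5.3, TopHat2 2.0.4, cutadapt 1.1, DESeq2 and FastQC were used with mm9. Whether counting used strand is not stated there. The 5 rows that name no gene, 36.9% to 41.7% of listed reads, stayed out of library sizes and tests. Symbols, exon lengths and exon overlaps came from GENCODE M21 on GRCm38, matched by identifier.

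Counts were filtered with filterByExpr (minimum count 10, minimum total 15), scaled by TMM and tested across all genes by the robust quasi-likelihood test of edgeR 4.0.16 (R 4.3.3) with no covariate beside genotype group. Log2 fold changes are mutant over control, with 95% intervals from that fit. Class averages used log2(CPM + 0.5). The fit was tested on simulated data. Alternatives were DESeq2 1.42.0, limma-voom (limma 3.58.1), DESeq2 or upper-quartile scaling, other filters, a replicate block and each library left out.

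The 31 genes and all lists were chosen with earlier results of these data known. Values in every library are given for called genes, for the 3 most abundant of each class and for Sox10, S100b, Erbb3, Ngfr and Gfap. Of the other lists, the 2 Schwann lists give up to 4 called genes each by smallest adjusted p, and the cell lists up to 2. Other named genes are those of the classes. Results for 2 genes of the further Schwann list are not reported here, and the counts of that list leave them out. Within each group, every pair of libraries exceeded counting noise (chi-square per degree of freedom 4.73 to 13.3), and each mouse counted as 1 sample.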

Additional observations from a re-analysis of the deposited data

How the results depend on the processing

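The calls of Gldn and Cadm4, in direction and side of the threshold, were kept in all 13 alternatives, and 7 called Schwann lineage genes were shared with limma-voom, both other scalings and both other filters. With no filter on low counts 4 myelinating genes were lower, Mbp and Pmp22 being added. With any 1 library left out, genes called over all genes numbered 658 to 1199 higher and 753 to 1500 lower; Schwann lineage genes numbered 1 to 2 higher and 1 to 4 lower; immature genes 0 to 1 higher and 0 to 1 lower; myelinating genes 1 to 2 lower. The immature median ranged from -0.21 to 0.05. Log2 fold changes that turned sign did so with a library left out: L1cam (range -0.33 to 0.05), Fabp7 (-0.02 to 0.14), Mal (-0.22 to 0.08), Sox10 (-0.43 to 0.00), Erbb3 (-0.17 to 0.05) and Cadm2 (-0.15 to 0.21), none of them called, and the cause was not tested. Mutant and control libraries carry the same replicate numbers, but same-numbered libraries did not deviate together (correlations 0.117, -0.029 and -0.087), and mutant replicate 2 correlated best with control replicate 3. With the replicate block 2767 genes were called against 2670, and 6 of the 7 Schwann lineage calls were shared, Egfl8 being lost (adjusted p = 0.0547) and Pmp22 added (0.0155). Depth limits Artn, Cadm2, Fabp7, Dhh, S100b and Mag, at under 5 CPM in every library, and Gfap could not be tested.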
